A study of Glycine max with 30 samples.

Results

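The genes described here are 138 soybean genes that carry the Gene Ontology (GO) term for transmembrane transport or the term for oligopeptide transport and that differed between a low phytic acid line and its normal counterpart in developing seeds. They were taken from the deposited GO output of the 5 seed stages, which places a gene under a term at a stage only when it passed the study's test for a line difference at that stage. The union of both terms over the stages held 139 genes, and 1 gene that the rule leaves out was among them. The 138 genes are drawn from 54175 annotated genes. All 138 passed the filter on low counts, because each had at least 10 counts over the 30 libraries. The rule itself used the line difference at the stage where a gene is listed, so values of that contrast are given as a description, and tests are read only at stages where a gene is not listed and between stages.

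RNA was sequenced from whole seeds, that is cotyledons, endosperm and seed coat together, of the 3mlpa line and the 3MWT line of Glycine max. The 3mlpa line is homozygous for mips1, mrp-l and mrp-n, which alter single bases of the gene for the first enzyme of phytic acid synthesis and of a pair of multidrug resistance-associated protein (MRP) transporters, and has low phytic acid, while 3MWT carries the normal alleles MIPS1, MRP-L and MRP-N. Seeds of both lines were collected at 5 stages set by seed length, of which stage 1 covers 2 to 4 mm, stage 2 covers 4 to 6 mm, stage 3 covers 6 to 8 mm, stage 4 covers 8 to 10 mm and stage 5 covers 10 to 12 mm, with 3 replicates in each of the 10 groups. Each genotype is represented by a single line from the same cross, so the mutations and the rest of the line background cannot be told apart. Plants grew in a growth chamber, each replicate was a pool of seeds from different pods on separate plants, and the 6 libraries of a stage shared a sequencing lane, so stage and lane cannot be told apart. Because whole seeds were used, fewer cells of a type and less RNA per cell cannot be told apart either. The mutated genes are no check of the labels, since point mutations need not alter transcript level, and both MRP genes were left out of the members by the rule.

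Transport proteins of the plasma membrane, the vacuole and the organelles decide which solutes enter a seed cell and where they are stored. The oligopeptide term in plants is carried mainly by proton-coupled carriers of the peptide and nitrate transporter family, which move small peptides, nitrate and several hormones. Major facilitator carriers move sugars and many other small solutes, MATE (multidrug and toxic compound extrusion) proteins exchange organic compounds for protons or sodium, and ABC (ATP-binding cassette) pumps spend ATP to move their substrates. Among ABC pumps, the MRP type is known in seeds for loading phytic acid into the vacuole. Amino acid permeases bring nitrogen into the embryo during filling, and ATP synthases of mitochondria and plastids use a proton gradient to make ATP. No cell type marker with a gene identifier was given by the sources used here, so the makeup of the seeds was not checked.

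Libraries held 14150244 to 29476755 counts on genes, with a median of 20987978, and between 134 and 138 of the members had at least 1 count in each. Alignments that were not unique, which were left out of the counts, numbered 4298110 to 8643432 in 3mlpa libraries and 9060479 to 50575458 in 3MWT libraries. Their part in the line differences was not tested, and counts of members with a near-identical copy elsewhere in the genome are uncertain. Replicate 1 of 3mlpa at stage 3, replicate 3 of 3mlpa at stages 4 and 5, and replicate 2 of 3MWT at stage 1 had a mean correlation under 0.95 with the other libraries of their group. Levels are given as CPM, the count of a gene relative to the TMM-scaled library total, and are not compared between genes. Results without these 4 libraries, a setting chosen after the data were seen, are given for the counts over all members, but not for every other count.

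By their function terms the members fell into 9 roles. There were 19 oligopeptide transport genes, 12 genes of proton transport including 6 with the ATP synthase complex term, 12 ATP-driven pumps, 11 drug antiporters, 5 amino acid transporters, 7 ion channels, 15 other ion transporters, 34 transporters with no substrate named, and 23 with no function term in the deposited output. The transmembrane term held 124 members and the oligopeptide term 19, with 5 under both. The study had also placed 29 members in classes of multidrug transporters, 15 as major facilitators, 6 as MATE proteins, 5 as MRP type, 2 as P-glycoproteins and 1 as ABC subfamily B4, a list it chose on these same samples. Members lay on all 20 chromosomes with 2 pairs fewer than 10 annotated genes apart, Glyma10g42340 with Glyma10g42440 and Glyma15g11410 with Glyma15g11490.

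Listing was concentrated at the second stage. The numbers of members listed at stages 1 to 5 were 41, 78, 40, 14 and 41. Of the 138, 94 were listed at 1 stage, 25 at 2, 11 at 3, 3 at 4 and 5 at every stage, and 43 were listed at stage 2 only. The 5 listed at every stage were Glyma13g02146, under the sodium ion term, Glyma12g17940, a cation antiporter gene, Glyma18g43740, a MATE antiporter, Glyma18g11640, a major facilitator, and Glyma10g34820, with no function term. Among members listed at stage 2, small log2 fold changes (3mlpa over 3MWT) in the fit used here were -0.71 for Glyma08g12360, 0.73 for Glyma06g18180 and 0.74 for Glyma13g18960. The threshold is set on the adjusted p, so a small fold change does not place a gene close to it. Members not listed at stage 2 but past the threshold of this fit there included Glyma06g13200 at 0.52, Glyma01g43280 at 0.62, Glyma07g39780 at -0.71 and Glyma17g23821 at -2.56.

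**Figure D1:**
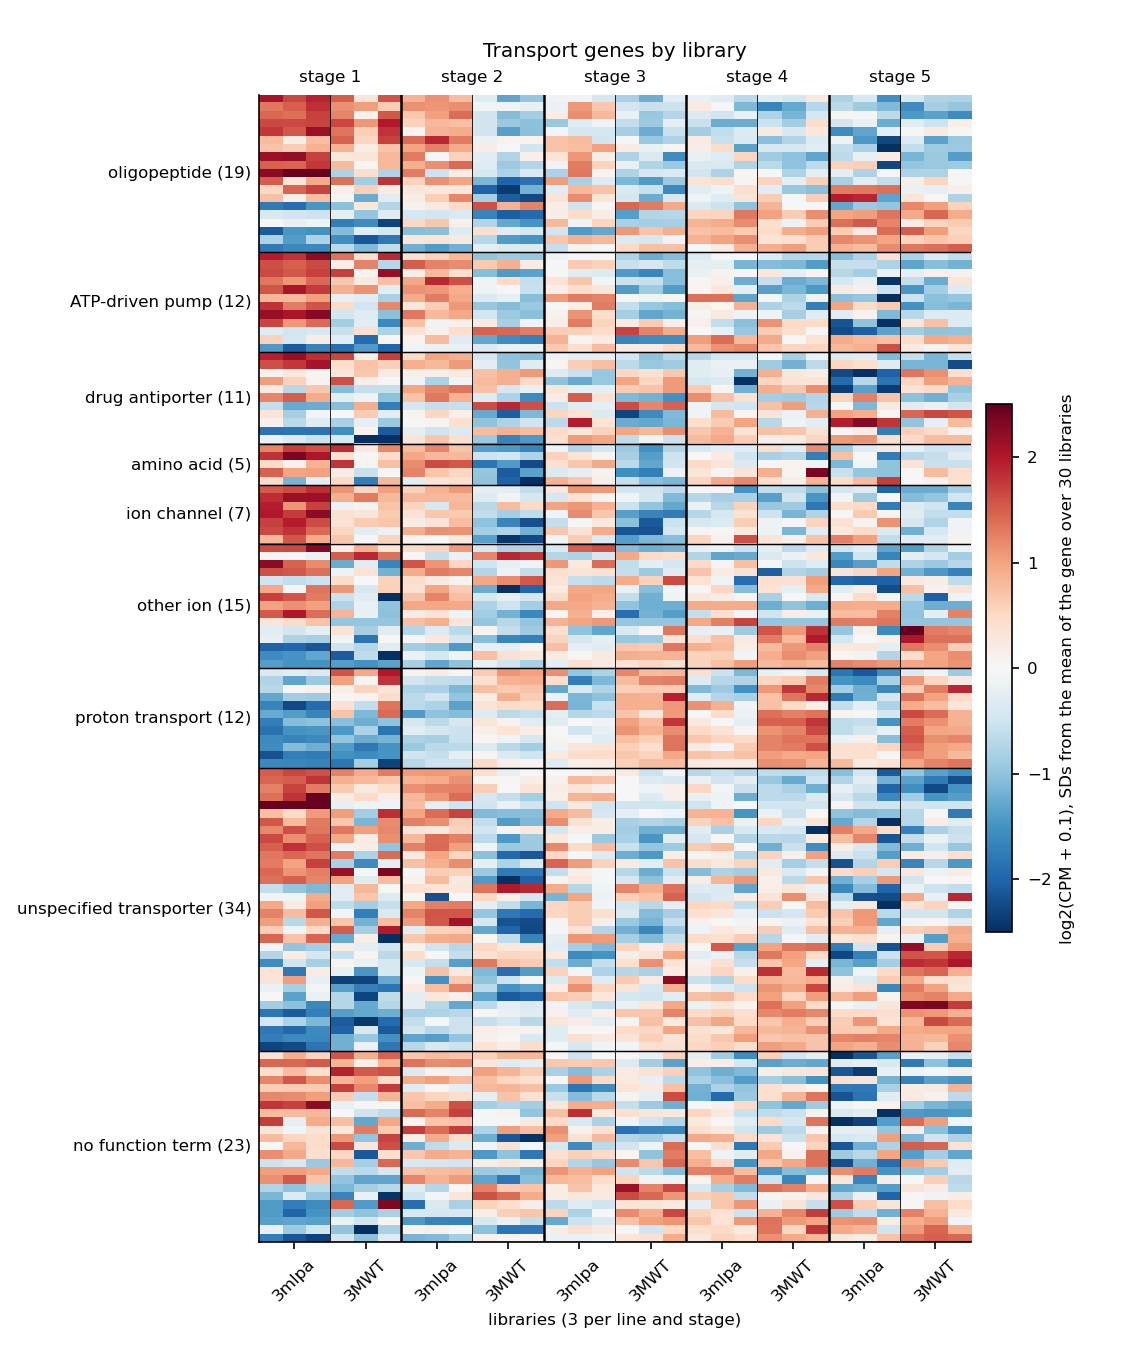
Level of each of the 138 members (rows, grouped by role) in each of the 30 libraries (columns, in blocks by stage with 3mlpa left of 3MWT), as the deviation in SD units of log2(CPM + 0.1) from the member's own mean. Red is above and blue below that mean. All 7 ion channel rows are reddest at stage 1 in 3mlpa, and 8 of the 12 proton transport rows are bluest at stage 1 in each line.

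At stage 2, 62 members were higher and 15 lower in 3mlpa by edgeR's quasi-likelihood test at an adjusted p of 0.01 or less, where 3.55% of all 45815 genes tested were higher and 3.93% lower, or 7.48% in all. At stage 1, 34 were higher and 15 lower, beside 4.23% and 5.26% of all genes (9.48% in all). At stage 3, 29 were higher and 21 lower, beside 3.8% and 3.83% (7.63%). Stage 4 had 9 higher and 10 lower, beside 1.22% and 1.93% (3.15%), and stage 5 had 17 higher and 29 lower, beside 2.91% and 3.89% (6.8%). The median log2 fold change of the members was 0.28, 0.78, 0.35, -0.04 and -0.16 from stage 1 to stage 5, while that of all genes stayed between -0.01 and 0.03. These counts contain the differences that chose the members, and nothing is read from their size. Among the higher calls were 13 of the 19 oligopeptide genes at stage 2, and among the lower calls at stage 5 were 7 of the 12 proton transport genes.

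**Figure D2:**
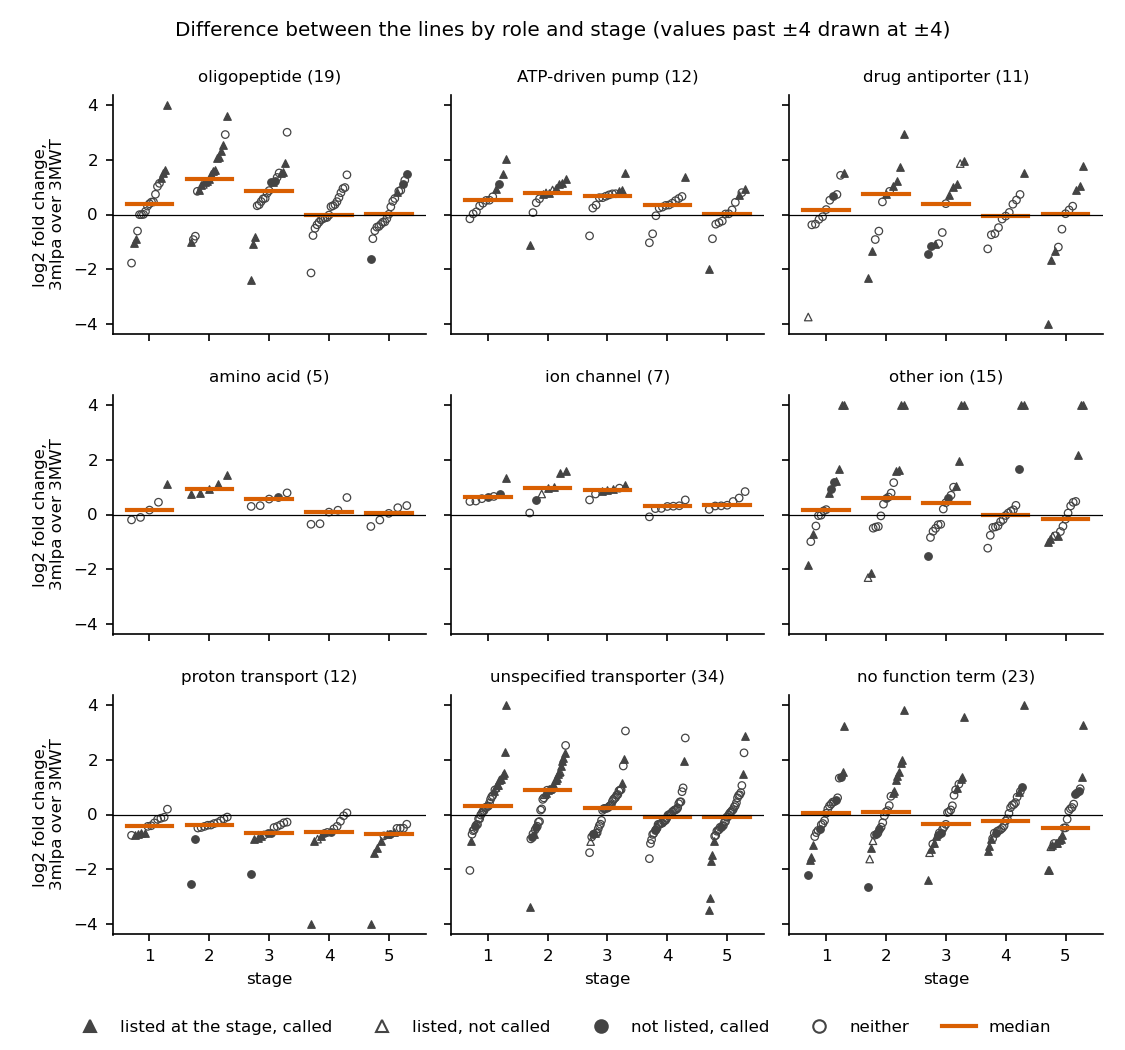
Log2 fold change of 3mlpa over 3MWT (vertical axis, drawn at 4 or -4 where larger) for each member at each stage (horizontal axis), in 1 panel per role. Triangles mark stages where a member is listed, filled symbols are past the threshold, and orange bars are medians, which peak at stage 2 for the oligopeptide genes (1.32) and lie below 0 at every stage for the proton transport genes.

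Single libraries moved these counts. The stage 1 total of 49 fell to 32 without replicate 2 of 3mlpa and to 29 without replicate 3 of 3MWT. At stage 2 the total of 77 fell to 48 without replicate 2 of 3mlpa, 40 without replicate 2 of 3MWT and 43 without replicate 3 of 3MWT. At stage 3 the total of 50 fell to 29 or 33 without replicate 2 or 3 of 3mlpa and to 32 or 30 without replicate 1 or 3 of 3MWT. The stage 4 total of 19 fell to 11 or 12 without replicate 1 or 2 of 3mlpa and to 10 without replicate 3 of 3MWT. The stage 5 total of 46 fell to 29 without replicate 1 of 3mlpa and to 22 or 27 without replicate 1 or 2 of 3MWT. With only the 6 libraries of a stage in the fit, 8, 12, 8 and 16 members passed at stages 1, 3, 4 and 5 and 100 at stage 2. Without the 4 libraries of low agreement, stage 2 gave 74 higher and 30 lower, stage 3 gave 47 and 34, and stage 4 gave 16 and 17. In that setting stage 1 gave 56 in all, with 44 of the 49 kept, and stage 5 gave 59, with 42 of the 46 kept. The stage 2 count of 15 lower became 7 or 8 without any of its 6 libraries but replicate 3 of 3MWT. With only the 6 libraries of stage 2 fitted, 26 were lower there, and the DESeq2 Wald test gave 16 lower at stage 4. No member past the threshold turned to the other direction in any of these fits.

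The members listed at stage 2 were followed into the other stages, whose libraries did not place them in the stage 2 output. Of these 78, 22, 24, 8 and 11 were also listed at stages 1, 3, 4 and 5, so that their difference there was part of the choice. Among the others, 45 of 56, 54 of 54, 43 of 70 and 40 of 67 had the same sign of difference at stages 1, 3, 4 and 5, and 5, 4, 2 and 4 of them passed the test in the same direction. With the listed ones included, 67, 78, 51 and 51 of the 78 had the same sign. For all 3427 genes past the threshold at stage 2, the shares with the same sign were 94.5%, 97.8%, 81.6% and 77.9%, beside 85.9%, 100%, 65.4% and 65.4% of the 78. The difference passed the test in the same direction for 24, 26, 10 and 14 members at those stages, or 30.8%, 33.3%, 12.8% and 17.9%, beside 44.6%, 44.0%, 16.7% and 21.4% of all genes past the threshold at stage 2. The 78 were chosen by the study's test, and 68 of them passed at stage 2 in the fit used here. All 3427 passed in that fit by definition, so the shares of the 2 sets are not like for like. Of the members that passed again, 19, 22, 8 and 10 were themselves listed at that other stage. The median difference in the stage 2 direction was 1.27 at stage 2 on the log2 scale, against 0.57, 0.77, 0.28 and 0.32 at stages 1, 3, 4 and 5.

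These counts too rested in part on single libraries. The 5, 4, 2 and 4 not listed at the stage became 2, 0, 1 and 1 at the lowest without a library of that stage (replicate 2 of 3mlpa at stages 1 and 3, replicate 1 of 3mlpa or replicate 1 or 3 of 3MWT at stage 4, and replicate 1 or 2 of 3MWT at stage 5), and 0, 0, 0 and 1 with only the 6 libraries of the stage fitted. Those at stages 3, 4 and 5 became 20, 9 and 13 without the 4 libraries of low agreement, and the 4 at stage 3 became 7, 8 or 9 without replicate 1 of 3mlpa at stage 3, replicate 3 of 3mlpa at stage 5 or replicate 2 of 3MWT at stage 1. With only 6 libraries fitted, no member listed at stage 2 passed at stage 1, 3 or 4 unless listed there. This includes the genes named below. The 24 at stage 1 became 16 without replicate 3 of 3MWT, and the 26 at stage 3 became 16 without replicate 2 of 3mlpa and 17 without replicate 3 of 3MWT. The 10 at stage 4 became 5 without replicate 1 of 3mlpa or replicate 1 or 3 of 3MWT, and the 14 at stage 5 became 9 without replicate 1 or 2 of 3mlpa and 8 without replicate 1 or 2 of 3MWT. In the 67 stage 2 members that were higher in 3mlpa there, the group mean was lowest at stage 2 for 1 gene in 3mlpa and for 31 genes in 3MWT. That description uses the stage 2 libraries that chose these genes.

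The 100 other genes that the same output placed under the general transport term, but not under either of the 2 terms used here, were set beside the members. At stage 2, 17 of them were higher and 23 lower in 3mlpa, with a median log2 fold change of -0.12. Their medians at stages 1, 3, 4 and 5 were -0.14, -0.21, -0.18 and -0.37. Both sets were chosen for a line difference, so the contrast between them is a description.

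Expression of the members also changed with seed growth, a comparison the rule did not use. Members listed at stage 1 or stage 5 were, however, chosen with libraries of those stages. In 3mlpa, 29 members were higher and 60 lower at stage 5 than at stage 1, where 22.4% of all genes were higher and 22.2% lower. In 3MWT, 39 were higher and 38 lower, beside 19.8% and 20.8% of all genes. The shares of members were thus 21.0% higher and 43.5% lower in 3mlpa, and 28.3% higher and 27.5% lower in 3MWT. The 66 members listed at neither stage 1 nor stage 5, a set that the absence of a line difference at the end stages defines, had 11 higher (16.7%) and 32 lower (48.5%) in 3mlpa and 15 higher (22.7%) and 20 lower (30.3%) in 3MWT. Their median log2 change was -0.64 in 3mlpa and -0.34 in 3MWT, while the medians of all genes were -0.08 and -0.09. Together the members took 0.412, 0.363, 0.280, 0.222 and 0.165% of all counts from stage 1 to stage 5 in 3mlpa, against 0.321, 0.251, 0.232, 0.228 and 0.193% in 3MWT. These are shares of library totals without TMM scaling. The TMM factors, which multiply the library totals, were 1.36, 1.38 and 1.38 at stage 1 in 3mlpa, and 0.70, 0.73 and 0.71 at stage 5. In 3MWT they were 1.27, 1.40 and 1.21 at stage 1, and 0.70, 0.71 and 0.70 at stage 5. Small rises and falls with growth thus depend on the scaling. With TMM scaling the mean summed level was 3006, 2799, 2632, 2501 and 2318 CPM in 3mlpa, against 2505, 2039, 2455, 2870 and 2742 CPM in 3MWT. The scaled sum was thus lower at stage 5 than at stage 1 in 3mlpa but not in 3MWT, where the share of counts did fall. At stage 1 the 3MWT sum had an SD of 406 CPM over 3 libraries. Most members listed at stages 1 and 2 were higher in 3mlpa there, and most listed at stage 5 were lower. The choice thus favours this contrast between the lines, which is a description.

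Across both lines, 31 members fell and 24 rose between the end stages in each line, 28 fell in 3mlpa only and 14 rose in 3MWT only, where "only" means that the other line did not pass the test. These are 22.5, 17.4, 20.3 and 10.1% of the members, beside 15.3, 15.8, 6.83 and 3.89% of all genes tested. In the opposite pattern, 7 members fell in 3MWT only (5.07%, beside 5.46% of all genes) and 5 rose in 3mlpa only (3.62%, beside 6.59%). Of the 41 members listed at stage 1, 28 were higher in 3mlpa there, and of the 41 listed at stage 5, 28 were lower. That choice favours a fall in 3mlpa and a rise in 3MWT, so the counts for a single line are a description. The difference of the change between the lines was itself tested. It passed for 9 members, and for all 9 the log2 difference was negative, where 0.589% of all genes tested passed as positive and 0.592% as negative. All 9 were listed at stage 1 or stage 5. The tested quantity is the line difference at stage 5 less that at stage 1, so listing at an end stage favours a call and the 66 members listed at neither give no separate test of it. The count of 9 became 6 without replicate 3 of 3mlpa at stage 1, replicate 1 of 3MWT at stage 1 or replicate 2 of 3MWT at stage 5, and it became 17 with the DESeq2 Wald test (2 positive and 15 negative) and 22 without the 4 libraries of low agreement (5 positive and 17 negative).

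**Figure D3:**
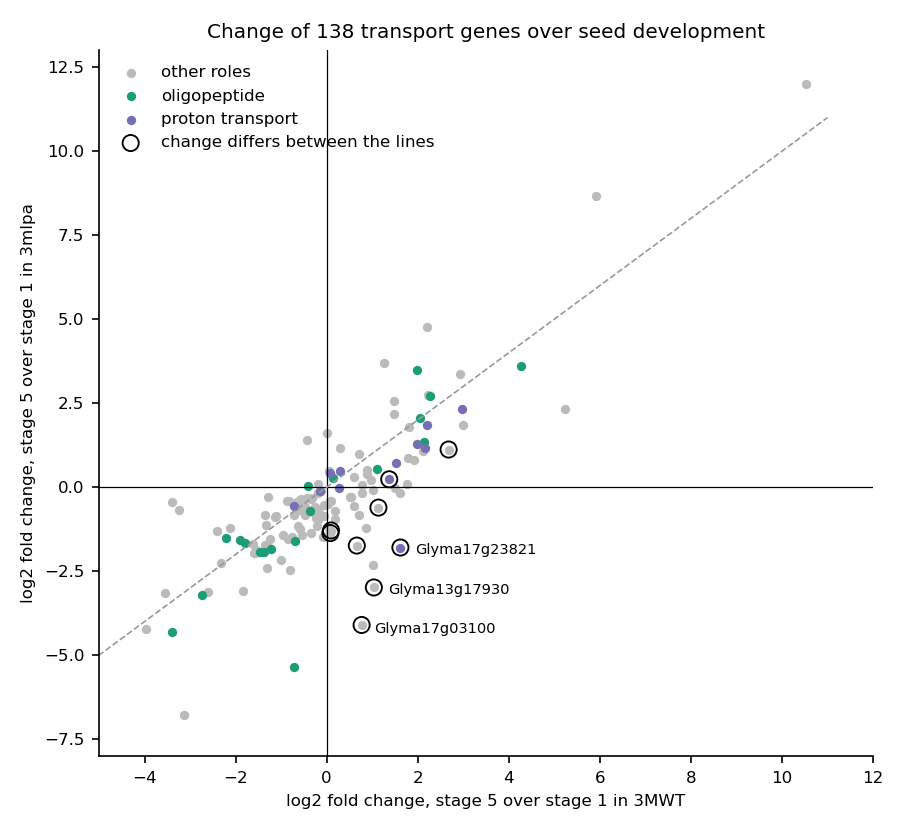
Log2 fold change of stage 5 over stage 1 for each member in 3mlpa (vertical axis) and in 3MWT (horizontal axis), with a diagonal line where both are equal. Circles mark the 9 members whose change differed between the lines, all below the diagonal, such as Glyma17g03100 at -4.10 in 3mlpa and 0.77 in 3MWT.

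Of the 19 oligopeptide transport genes, 15 were listed at stage 2, and 13 were higher and 1 lower in 3mlpa there in the fit used here. All of these calls fell on genes listed there, beside 3.55% higher and 3.93% lower of all genes. The median log2 fold changes of the 19 genes were 0.40, 1.32, 0.88, -0.02 and 0.01 from stage 1 to stage 5. No member passed the test at stage 4 in edgeR, where 4 higher and 2 lower had an unadjusted p under 0.05 and DESeq2 called 1 higher. Their summed level was 883 ± 84.5, 701 ± 81.3, 550 ± 80.7, 419 ± 1.85 and 456 ± 115 CPM (mean ± SD of 3 libraries) from stage 1 to stage 5 in 3mlpa. In 3MWT it was 625 ± 187, 290 ± 58.6, 338 ± 36.9, 419 ± 50.6 and 394 ± 19.8 CPM. The 3MWT sum was thus lowest at stage 2, the stage that chose 15 of these genes, and both lines had the same mean at stage 4. Between stages 1 and 5, 11 fell and 5 rose in 3mlpa, beside 22.2 and 22.4% of all genes, and 9 fell and 6 rose in 3MWT, beside 20.8 and 19.8%.

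**Figure D4:**
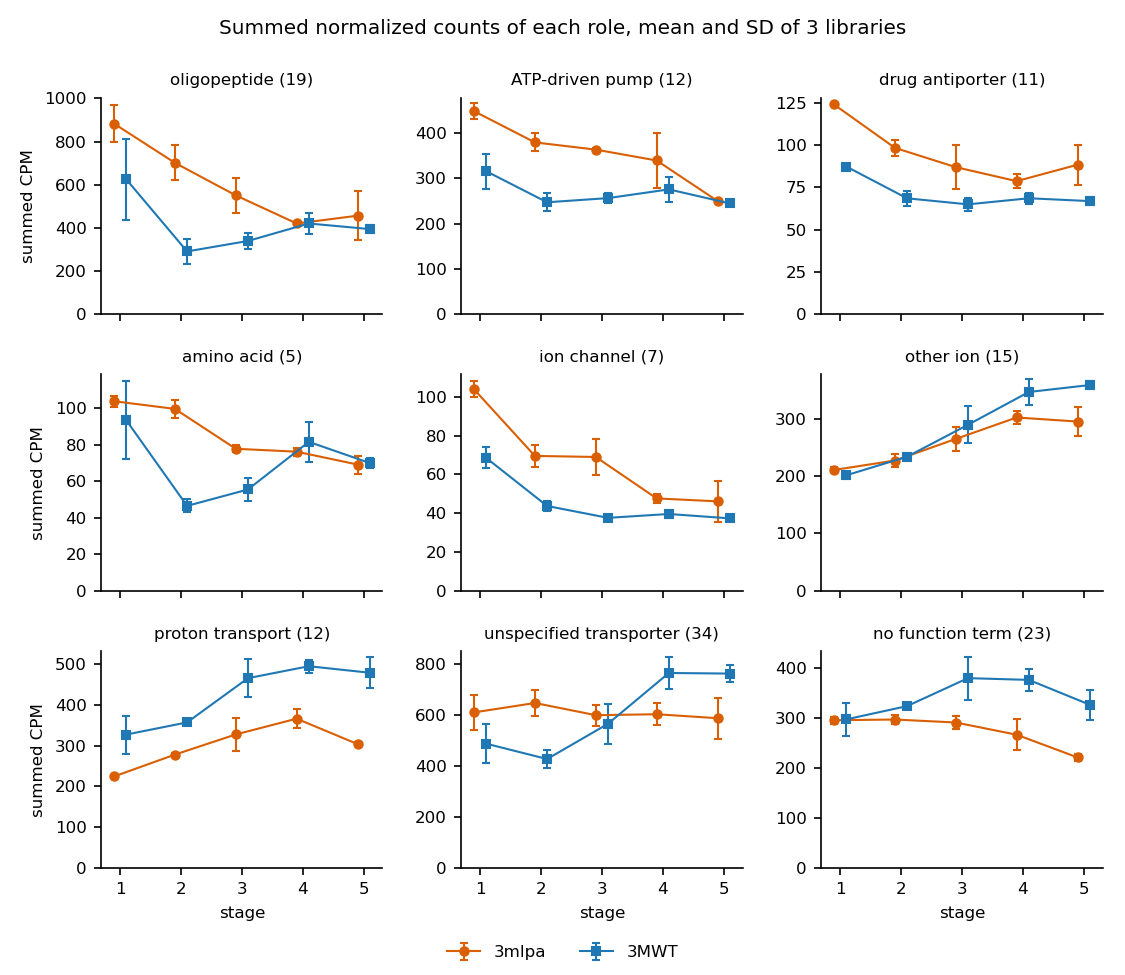
Summed CPM of the members of each role (vertical axis) by stage (horizontal axis), mean ± SD of 3 libraries, with 3mlpa in orange and 3MWT in blue. The oligopeptide sums were 701 in 3mlpa and 290 in 3MWT at stage 2 and 419 in both at stage 4, while the proton transport sums were lower in 3mlpa at every stage.

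Glyma10g32750 and Glyma20g34870 were listed at stage 2 only. At that stage, Glyma10g32750 had 88.4, 110 and 137 CPM in 3mlpa, against 43.9, 30.4 and 35.1 CPM in 3MWT. At stage 3 it had 65.9, 119 and 96.3 CPM in 3mlpa, against 53.2, 32.9 and 37.7 CPM in 3MWT, and at stage 5 it had 60.1, 57.7 and 39.3 CPM in 3mlpa, against 24.3, 25.9 and 22.3 CPM in 3MWT. All 3mlpa libraries were above all 3MWT libraries at these 3 stages. The log2 fold change was 1.18 (SE 0.26, adjusted p = 0.003) at stage 3 and 1.12 (SE 0.27, adjusted p = 0.0057) at stage 5. The stage 3 call was lost without replicate 2 or 3 of 3mlpa or of 3MWT (adjusted p between 0.012 and 0.03), and the stage 5 call without replicate 1 or 2 of 3mlpa or any replicate of 3MWT (0.019 to 0.029). At stage 4 the lines overlapped, with 47.4, 43.1 and 52.1 CPM in 3mlpa and 36.7, 28.9 and 45.3 CPM in 3MWT. Both lines fell between stages 1 and 5, by 1.50 (SE 0.26) on the log2 scale in 3mlpa and by 2.22 (SE 0.27) in 3MWT.

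Glyma20g34870 had 128, 158 and 196 CPM at stage 2 in 3mlpa, against 47.6, 29.9 and 34.3 CPM in 3MWT. At stage 1 it had 205, 202 and 260 CPM in 3mlpa, against 118, 63.2 and 121 CPM in 3MWT, a log2 fold change of 1.14 that did not pass (adjusted p = 0.084). The lines did not overlap at either stage, and spread within 3mlpa was wide later, with 99.7, 100 and 9.82 CPM at stage 5, where replicate 3 is a library of low agreement. Glyma07g40250, a major facilitator of the study's list, had 131, 148 and 125 CPM in 3mlpa at stage 2, against 76.3, 47.6 and 55.5 CPM in 3MWT, and at stage 1 the difference was 0.46 on the log2 scale (adjusted p = 0.12). Glyma02g00600 was a gene of early seeds, with 2.61, 2.61 and 2.68 CPM in 3mlpa at stage 1, against 2.66, 1.31 and 3.91 CPM in 3MWT. At stage 2 it still had 0.688, 0.935 and 0.872 CPM in 3mlpa, against 0.142, 0.0444 and 0.0273 CPM in 3MWT. From stage 1 to stage 5 it fell by 4.30 (SE 0.69) on the log2 scale in 3mlpa and by 3.40 (SE 0.63) in 3MWT.

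A second pattern among the oligopeptide genes was a climb with seed growth. Glyma17g00550 had 2.4, 1.1 and 2.44 CPM at stage 1, 14.8, 18.7 and 17.3 at stage 3 and 27, 24.7 and 20.9 at stage 5 in 3mlpa, against 0.924, 0.403 and 0.66 at stage 1, 4.15, 3.94 and 5.73 at stage 3 and 12.3, 14.7 and 13.1 CPM at stage 5 in 3MWT. It rose by 3.60 on the log2 scale (SE 0.28, adjusted p = 1.2e-10) in 3mlpa and by 4.28 (SE 0.33, adjusted p = 1e-10) in 3MWT. The gene was listed at stages 1 to 3, and the line difference at stages 4 and 5 was 0.95 (adjusted p = 0.018) and 0.85 (adjusted p = 0.02), with every 3mlpa library above every 3MWT library. Glyma18g49470, listed at every stage but the fourth, rose by 1.35 (SE 0.20) in 3mlpa and by 2.14 (SE 0.22) in 3MWT. Glyma04g08770 went the other way between the lines, with 6.85, 5.89 and 6.83 CPM in 3mlpa at stage 2, against 13.7, 12.6 and 12.7 CPM in 3MWT. It also rose in both, by 2.72 (SE 0.20) in 3mlpa and by 2.27 (SE 0.20) in 3MWT.

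**Figure D5:**
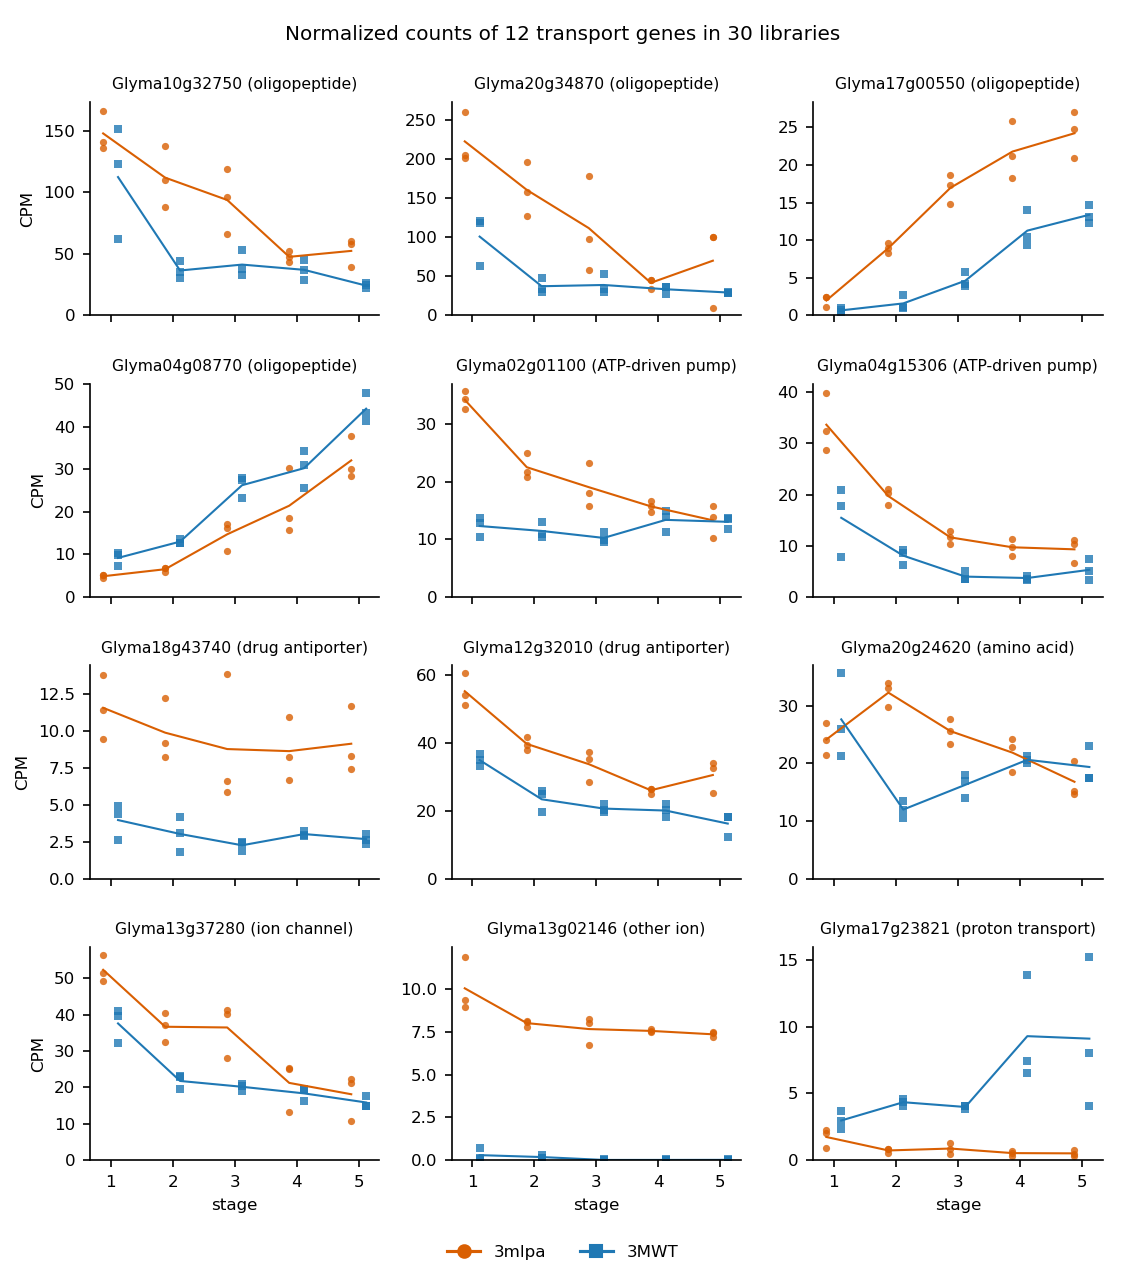
CPM of 12 members (vertical axis, each panel with its own scale) in every library by stage (horizontal axis), with 3mlpa as orange circles left of 3MWT as blue squares and lines through the means of 3 libraries. Glyma18g43740 and Glyma13g02146 keep the lines apart at all 5 stages, whereas the lines part at stage 2 and meet at stage 4 for Glyma20g24620 and meet at stages 4 and 5 for Glyma02g01100.

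Amino acid transporters, all 5 of them, were listed at stage 2, and each was higher in 3mlpa there, beside 3.55% of all genes. The stage 2 listing chose these genes, so their difference and sum at that stage are a description. Their summed level at stage 2 was 99.8 ± 4.75 CPM in 3mlpa, against 46.6 ± 3.62 CPM in 3MWT, while at stage 5 it was 69.3 ± 4.94 CPM in 3mlpa, against 70.1 ± 2.95 CPM in 3MWT. Glyma20g24620 had 24, 21.4 and 27.1 CPM in 3mlpa at stage 1, against 35.8, 21.2 and 25.9 CPM in 3MWT, and 29.8, 34 and 33.1 CPM in 3mlpa at stage 2, against 11.9, 13.5 and 10.5 CPM in 3MWT. At stage 3 it had 23.4, 25.7 and 27.7 CPM in 3mlpa, against 17, 14 and 17.9 CPM in 3MWT. The lines thus overlapped at stage 1 and stood apart at stages 2 and 3. The stage 3 difference of 0.65 on the log2 scale (SE 0.16) passed the test (adjusted p = 0.0073), but not without replicate 2 or 3 of 3mlpa or any replicate of 3MWT (0.016 to 0.046). At stages 4 and 5 the log2 fold changes were 0.09 and -0.20 (adjusted p = 0.45 at stage 5). Glyma10g42440 had 35, 40.1 and 34.1 CPM in 3mlpa at stage 2, against 17.5, 17.1 and 15.9 CPM in 3MWT, and overlapped at stage 1 with 40.1, 47.2 and 45.1 CPM in 3mlpa and 49, 29.2 and 40 CPM in 3MWT. It fell between the end stages by 0.84 on the log2 scale in 3mlpa (adjusted p = 8.5e-05) and by 0.72 in 3MWT (adjusted p = 0.00053).

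Ion channel genes, which let ions pass along their gradient, had positive differences in 7 of 7 members at each of stages 1, 2 and 3. Those that passed the test at these stages numbered 3, 5 and 4, all of them higher in 3mlpa, beside 4.23, 3.55 and 3.8% of all genes. Of the 7, 1, 5 and 4 are listed at these stages, so that 2, 1 and 0 of the calls fell where the gene is not listed, while 0 passed at stages 4 and 5 in edgeR and in DESeq2, with 1 and 2 higher there at an unadjusted p under 0.05. Their summed level at stage 1 was 104 ± 4.04 CPM in 3mlpa, against 68.5 ± 5.44 CPM in 3MWT, and at stage 5 it was 46.1 ± 10.7 CPM in 3mlpa, against 37.3 ± 1.2 CPM in 3MWT. Glyma06g13200, listed at stage 3 only, had 10.6, 9.88 and 11.4 CPM in 3mlpa at stage 1, against 6.68, 6.5 and 7.21 CPM in 3MWT. The lines did not overlap, and the difference of 0.64 on the log2 scale (SE 0.13, adjusted p = 0.0012) passed with any single library left out. Its stage 2 difference of 0.52 (SE 0.13, adjusted p = 0.0073) did not pass without any 1 of the 6 libraries of that stage (0.013 to 0.036). Glyma02g46930, listed at stages 2 and 3, had 9.57, 10.1 and 8.82 CPM in 3mlpa at stage 1, against 6.54, 4.99 and 5.18 CPM in 3MWT. This difference of 0.76 on the log2 scale (SE 0.18, adjusted p = 0.0041) was lost without replicate 1 or 2 of 3mlpa or replicate 2 or 3 of 3MWT (0.014 to 0.023). Glyma13g37280, listed at stages 2 and 3, fell by 1.53 on the log2 scale (adjusted p = 1.4e-06) in 3mlpa and by 1.24 (adjusted p = 2.8e-05) in 3MWT.

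Of the 12 ATP-driven pumps, 4, 6, 3, 1 and 2 were higher in 3mlpa at stages 1 to 5, beside 4.23, 3.55, 3.8, 1.22 and 2.91% of all genes. There was 1 lower at each of stages 2 and 5, beside 3.93 and 3.89%. Only 1, 0, 0, 0 and 0 of the calls at stages 1 to 5 fell on a pump not listed at that stage, so these counts are a description. Between the end stages 9 fell and 1 rose in 3mlpa, beside 22.2 and 22.4% of all genes, and 5 fell and 2 rose in 3MWT, beside 20.8 and 19.8%. Glyma04g15306, of the MRP type and listed at stages 2 to 4, had 28.7, 39.8 and 32.4 CPM in 3mlpa at stage 1, against 17.8, 20.9 and 7.77 CPM in 3MWT. The lines did not overlap, and the difference was 1.12 on the log2 scale (SE 0.26, adjusted p = 0.0041), but it did not pass without replicate 2 or 3 of 3mlpa or replicate 3 of 3MWT (0.01 to 0.027). At stage 3 it had 10.3, 12.9 and 11.7 CPM in 3mlpa, against 3.46, 5.04 and 3.45 CPM in 3MWT, and at stage 5 the lines overlapped at 11, 10.3 and 6.56 CPM in 3mlpa and 3.32, 5.09 and 7.52 CPM in 3MWT. Another MRP type gene, Glyma20g30490, had overlapping lines at stage 1, with 91.8, 87.9 and 94 CPM in 3mlpa and 94.3, 45.1 and 116 CPM in 3MWT. At stage 2 it had 47.1, 62.9 and 52.1 CPM in 3mlpa, against 26.8, 22.9 and 23.8 CPM in 3MWT. It fell by 1.42 (adjusted p = 2e-06) in 3mlpa and by 0.97 (adjusted p = 0.00027) in 3MWT.

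Glyma02g01100, the ABC subfamily B4 pump, differed most at the first stage. It had 34.3, 32.5 and 35.7 CPM in 3mlpa at stage 1, against 12.8, 13.7 and 10.4 CPM in 3MWT. At stage 5 it had 13.8, 15.8 and 10.2 CPM in 3mlpa, against 11.9, 13.6 and 13.6 CPM in 3MWT. It fell by 1.36 (SE 0.15, adjusted p = 3e-08) in 3mlpa, while 3MWT gave 0.08 (SE 0.15, adjusted p = 0.68). Glyma09g33880, a P-glycoprotein listed at stage 2, had 133, 151 and 135 CPM in 3mlpa at that stage, against 85.4, 90 and 66.7 CPM in 3MWT, without overlap, and its difference did not pass in the fit used here. Glyma15g15870 was the pump that rose in both lines, by 2.19 (SE 0.15) in 3mlpa and by 1.49 (SE 0.15) in 3MWT.

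Among the 11 drug antiporters, proteins that exchange an organic compound for another ion, 5 were higher and 2 lower in 3mlpa at stage 2. Of all genes, 3.55% were higher and 3.93% lower there. The 5 were the MATE genes of the study's list, which kept genes up-regulated in 3mlpa. All 7 were listed at stage 2, so these calls are a description. Glyma18g43740 had 11.4, 13.8 and 9.48 CPM in 3mlpa at stage 1, against 4.37, 4.89 and 2.64 CPM in 3MWT, and 7.42, 11.7 and 8.28 CPM in 3mlpa at stage 5, against 2.64, 2.35 and 3.03 CPM in 3MWT. It was listed at every stage with log2 fold changes of 1.54, 1.73, 1.96, 1.53 and 1.77, and its change with growth was -0.34 in 3mlpa (adjusted p = 0.33) and -0.57 in 3MWT (adjusted p = 0.15). Every 3mlpa library was above every 3MWT library at all 5 stages. Glyma12g32010, listed at stages 2, 3 and 5, had 51.1, 54 and 60.4 CPM in 3mlpa at stage 1, against 33.1, 36.5 and 34.9 CPM in 3MWT. That difference of 0.66 (SE 0.13, adjusted p = 0.0014) passed in each of the 30 fits with a library left out, but not with only the 6 libraries of stage 1 fitted. It fell in both lines, by 0.86 (adjusted p = 7.5e-06) in 3mlpa and by 1.11 (adjusted p = 3e-07) in 3MWT. In the other direction, Glyma07g19210 had 4.85, 4.58 and 4.59 CPM in 3mlpa at stage 2, against 11.3, 12.6 and 11.2 CPM in 3MWT, and Glyma15g11410 had 1.08, 0.717 and 0.901 CPM in 3mlpa, against 4.26, 5.01 and 4.31 CPM in 3MWT.

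Other ion transporters included the members with the most complete separation of the lines. Glyma13g02146, under the sodium ion term, had 8.94, 11.9 and 9.34 CPM in 3mlpa at stage 1, against 0.142, 0.706 and 0.0508 CPM in 3MWT. At stages 3, 4 and 5 the 3 libraries of 3MWT held 1 count together at each stage, beside 550, 452 and 345 counts in 3mlpa. The ratio of 3MWT to 3mlpa was 0.00221 at stage 3 (95% exact counting interval 5.59e-05 to 0.0123), 0.00277 at stage 4 (7.02e-05 to 0.0154) and 0.003 at stage 5 (7.6e-05 to 0.0167). Glyma12g17940, a cation antiporter gene, had 0 counts in 3MWT at stages 1, 3, 4 and 5, beside 53, 87, 116 and 92 counts in 3mlpa. With a floor of 3 counts over the group, the level in 3mlpa was at least 14.3-fold higher at stage 1, and the bounds at stages 3, 4 and 5 were 23.9, 30.9 and 29.6. Within 3mlpa it rose by 1.62 on the log2 scale between stages 1 and 5 (adjusted p = 0.0036), which did not pass without replicate 1 or 2 of stage 1 or replicate 3 of stage 5 (0.011 to 0.02). Intervals and floors cover counting error only.

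Other members of this role differed less. Glyma19g02380, an anion transporter gene listed at stage 1, had 47.2, 47.7 and 45.4 CPM in 3mlpa at that stage, against 76.1, 71.2 and 81.9 CPM in 3MWT. It rose by 0.98 (adjusted p = 4e-07) in 3mlpa and by 0.70 (adjusted p = 4.2e-05) in 3MWT, and at stage 5 the line difference was -0.43 (adjusted p = 0.021). Both rises rest on the TMM scaling. In 3mlpa the raw counts were 1335, 1261 and 1301 at stage 1 and 1249, 1600 and 1450 at stage 5. Glyma20g26550, with an organic acid term and listed at stages 1, 2 and 5, was also higher at stage 4, with 1.6, 1.12 and 1.27 CPM in 3mlpa, against 0.185, 0.565 and 0.513 CPM in 3MWT. The log2 fold change of 1.66 (SE 0.36, adjusted p = 0.0043) was lost without replicate 1 of 3mlpa or replicate 1 or 3 of 3MWT (0.014 to 0.033). Glyma10g11600, a cation antiporter gene listed at stages 1 and 2, was lower at stage 3 by 1.54 (SE 0.32, adjusted p = 0.0022), with 0.449, 0.429 and 0.569 CPM in 3mlpa, against 1.81, 1.24 and 1.17 CPM in 3MWT. That call was lost without replicate 2 of 3mlpa or replicate 1 of 3MWT (0.018 and 0.016).

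Proton transport and ATP synthase genes had a negative median difference at every stage, while that of the other 8 roles was negative in 0, 0, 1, 5 and 3 of them at stages 1 to 5. Of 12 genes, 4, 2, 6, 5 and 7 were lower in 3mlpa at stages 1 to 5, beside 5.26, 3.93, 3.83, 1.93 and 3.89% of all genes. Of the 12, 0 were higher at any stage in edgeR, in DESeq2 or at an unadjusted p under 0.05. At stages 1 to 5, 4, 0, 3, 4 and 6 of them are listed, and 0, 2, 3, 2 and 1 of the calls fell where the gene is not listed. The counts and the medians contain that choice. The median log2 fold change was -0.42, -0.39, -0.68, -0.65 and -0.70 from stage 1 to stage 5. The summed level was 224 ± 3.48, 278 ± 4.64, 328 ± 40.6, 366 ± 23.3 and 304 ± 5.8 CPM in 3mlpa, against 327 ± 46.6, 357 ± 7.13, 466 ± 46.5, 495 ± 16.5 and 479 ± 37.7 CPM in 3MWT. With seed growth 6 rose and 2 fell in 3mlpa, beside 22.4 and 22.2% of all genes, and 7 rose and 1 fell in 3MWT, beside 19.8 and 20.8%. The median log2 changes were 0.44 in 3mlpa and 1.45 in 3MWT.

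Several of these genes were also lower at stages where they are not listed. Glyma03g25190, an ATP synthase gene listed at stage 5, had 54.5, 43.1 and 44.2 CPM in 3mlpa at stage 3, against 70.1, 69.5 and 89.5 CPM in 3MWT. The lines did not overlap, and the difference of -0.69 on the log2 scale (SE 0.13, adjusted p = 0.00065) passed with any single library left out. At stage 4 it was -0.67 (SE 0.13, adjusted p = 0.0015), lost without replicate 2 of 3mlpa (0.011) or replicate 3 of 3MWT (0.019). At stages 1 and 2 the differences of -0.41 and -0.44 did not pass (adjusted p = 0.023 and 0.018), although the lines did not overlap. Glyma17g13930, listed at stages 3 and 5, had 23.2, 22 and 19.1 CPM in 3mlpa at stage 4, against 30.4, 32.1 and 38 CPM in 3MWT, a log2 fold change of -0.64 (SE 0.13, adjusted p = 0.0031) that was lost without replicate 2 or 3 of 3mlpa or replicate 3 of 3MWT (0.013 to 0.034). None of these 3 differences passed when only the 6 libraries of the stage were fitted.

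Glyma17g23821, with the ATP synthase complex term and listed at stages 4 and 5, had lines far apart from stage 2 onward. It had 0.838, 0.81 and 0.552 CPM in 3mlpa at stage 2, against 4.59, 4.08 and 4.36 CPM in 3MWT, and 0.449, 1.33 and 0.854 CPM in 3mlpa at stage 3, against 3.83, 4.07 and 4.06 CPM in 3MWT. The groups did not overlap, and the log2 fold changes of -2.56 (SE 0.42, adjusted p = 0.00021) and -2.17 (SE 0.43, adjusted p = 0.0013) both passed with any single library left out. At stage 1 the lines stood close, with 0.918, 2.04 and 2.27 CPM in 3mlpa and 2.31, 3.68 and 2.94 CPM in 3MWT. It was the only member whose calls between the end stages were opposite, a fall of 1.80 (SE 0.51, adjusted p = 0.0045) in 3mlpa and a rise of 1.62 (SE 0.38, adjusted p = 0.00097) in 3MWT. The fall was lost without replicate 2 or 3 of 3mlpa at stage 1 or at stage 5 (0.016 to 0.036), and the rise without replicate 3 of 3MWT at stage 5 (0.028).

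The transporters with no substrate named were higher in 3mlpa for 15 of 34 and lower for 4 at stage 2, and higher for 2 and lower for 6 at stage 5. Of all genes, 3.55% were higher and 3.93% lower at stage 2, and 2.91% higher and 3.89% lower at stage 5. Only 2 of the stage 2 calls and 1 of the stage 5 calls fell on genes not listed at that stage. Glyma03g40121, a major facilitator listed at stages 1 to 4, had 5.33, 6.08 and 4.39 CPM in 3mlpa at stage 2, against 1.71, 0.799 and 0.818 CPM in 3MWT. At stage 5 it had 2.09, 1.28 and 0.685 CPM in 3mlpa, against 0.61, 1.17 and 0.791 CPM in 3MWT, where the lines overlapped and the difference of 0.61 did not pass (adjusted p = 0.39). Glyma01g44930, a major facilitator of young seeds, had 17.1, 20.2 and 18.6 CPM in 3mlpa at stage 1, against 12.4, 8.87 and 13.2 CPM in 3MWT. It fell by 4.23 (adjusted p = 6.9e-10) in 3mlpa and by 3.97 (adjusted p = 4.8e-09) in 3MWT. Glyma17g29950 was a gene of late seeds, with 25.9, 27.5 and 26 CPM in 3mlpa at stage 5, against 13.4, 12.9 and 22.6 CPM in 3MWT. It was listed at stage 2, when its level was 0.18, 0.156 and 0.407 CPM in 3mlpa, against 3.65, 3.15 and 1.39 CPM in 3MWT. Glyma19g06911, listed at stage 3 only, was lower in 3mlpa at all 5 stages, with 92.9, 97.5 and 90 CPM in 3mlpa at stage 4, against 136, 142 and 137 CPM in 3MWT. That stage 4 difference of -0.57 (SE 0.11, adjusted p = 0.0015) passed with any single library left out. At stages 1, 2 and 5 the differences of -0.44, -0.47 and -0.44 were each lost when any of 5 libraries of the stage was left out, the exceptions being replicate 3 of 3mlpa at stage 1 and replicate 3 of 3MWT at stages 2 and 5 (highest adjusted p 0.046 without replicate 2 of 3mlpa at stage 1, 0.024 without replicate 1 of 3MWT at stage 2 and 0.042 without replicate 1 of 3MWT at stage 5).

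Among the genes with no function term, Glyma16g33840 and Glyma06g05800 were higher in 3mlpa at all 5 stages. Glyma16g33840, listed at stages 1 to 3, had 10.6, 11.2 and 13.7 CPM in 3mlpa at stage 4, against 6.03, 5.14 and 6.44 CPM in 3MWT, and 9.81, 10.7 and 11.1 CPM in 3mlpa at stage 5, against 6.51, 5.54 and 5.14 CPM in 3MWT. The log2 fold changes were 1.01 (SE 0.18, adjusted p = 0.00064) at stage 4 and 0.88 (SE 0.18, adjusted p = 0.0019) at stage 5, the second lost without replicate 2 of 3MWT (0.011). The stage 4 difference did not pass with only the 6 libraries of that stage fitted. Glyma06g05800, listed at stages 2 to 4, had 13.9, 14.4 and 13.2 CPM in 3mlpa at stage 5, against 7.05, 9.98 and 7.85 CPM in 3MWT, a difference of 0.74 (SE 0.15, adjusted p = 0.0021) that did not pass without replicate 1 of 3MWT (0.024). Its stage 1 difference of 0.53 (adjusted p = 0.0095) passed in only 8 of the 30 fits with a library left out (highest 0.046). Glyma18g11640, a major facilitator of the study's list, had 4.27, 4.35 and 3.77 CPM in 3mlpa at stage 1, against 0.391, 0.353 and 0.558 CPM in 3MWT. At stage 5 it had 5.1, 6.04 and 0.0571 CPM in 3mlpa, against 0.203, 0.261 and 0.659 CPM in 3MWT, with replicate 3 of 3mlpa, a library of low agreement, below all of 3MWT. In the other direction, Glyma15g25690, listed at stages 1, 2 and 5, had 11.4, 11.2 and 12.1 CPM in 3mlpa at stage 3, against 16, 16.9 and 25.9 CPM in 3MWT, a difference of -0.76 (SE 0.19, adjusted p = 0.0074) lost without any 1 replicate of 3mlpa (0.015 to 0.037) or without replicate 3 of 3MWT (0.089). Glyma10g34820 had 8.58, 10.7 and 8.3 CPM in 3mlpa at stage 1, against 23.2, 17.8 and 18.5 CPM in 3MWT. Glyma07g39780, listed at stages 3 to 5, was lower at stage 2 as well, with 36.7, 31 and 42.2 CPM in 3mlpa, against 69.9, 54.1 and 55.7 CPM in 3MWT. Its log2 fold change of -0.71 (SE 0.15, adjusted p = 0.0026) was lost without replicate 1 or 2 of 3mlpa or replicate 1 of 3MWT (0.011 to 0.024).

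The 29 genes that the study classed as multidrug transporters cut across these roles. At stage 2, 14 of 15 major facilitators, 6 of 6 MATE genes, 5 of 5 MRP type genes and the ABC subfamily B4 gene were higher in 3mlpa, while the P-glycoprotein genes Glyma09g33880 and Glyma17g37860 had log2 fold changes of 0.79 and 0.90 that did not pass (adjusted p = 0.017 and 0.014). Because the study chose the list on these samples and kept genes up-regulated in 3mlpa, the count is no independent evidence of direction. At the other stages 8, 9, 4 and 5 of the 29 were higher at stages 1, 3, 4 and 5, beside 4.23, 3.8, 1.22 and 2.91% of all genes. None was lower in edgeR or DESeq2, with 1 lower at stage 4 and 3 lower at stage 5 at an unadjusted p under 0.05. Some of the 29 are themselves listed at these stages, so these counts too contain the choice and are a description. The median log2 fold change was 0.52, 1.17, 0.72, 0.33 and 0.03 from stage 1 to stage 5. Between stages 1 and 5, 18 fell and 2 rose in 3mlpa, beside 22.2 and 22.4% of all genes, and 10 fell and 5 rose in 3MWT, beside 20.8 and 19.8%.

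The 9 members whose change with growth differed between the lines had the difference at an end stage that placed them in the list, so their values are descriptive. For Glyma02g01100 and Glyma01g43280 the lines were apart at stage 1 and met at stage 5. Glyma01g43280, a cation antiporter gene, had 27, 21.1 and 19.2 CPM in 3mlpa at stage 1, against 8.95, 12.2 and 7.87 CPM in 3MWT, and 7.96, 8.67 and 10.8 CPM in 3mlpa at stage 5, against 10.4, 9.92 and 10.7 CPM in 3MWT. Glyma05g03340, an ATP synthase gene, met at stage 1 and was apart at stage 5, with 11.3, 11.5 and 7.82 CPM in 3mlpa, against 26, 24.5 and 21.6 CPM in 3MWT. Glyma13g17930, an ATP-driven pump, was the only member called in opposite directions at 2 stages. It had 3, 2.12 and 2.58 CPM in 3mlpa at stage 1, against 0.604, 0.907 and 0.355 CPM in 3MWT, and 0.232, 0.549 and 0.171 CPM in 3mlpa at stage 5, against 1.29, 1.7 and 0.857 CPM in 3MWT. The lines did not overlap at either stage. Glyma17g03100, a drug antiporter gene chosen after its values were seen, had 3 counts over the 3 libraries of 3mlpa at stage 5, against 117 counts in 3MWT, a ratio of 0.0248 with a 95% exact counting interval of 0.00511 to 0.0724.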

How the data were processed

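RNA-seq libraries of whole soybean seeds were made with an unstranded kit and sequenced as single-end reads. According to the methods of the study, the authors aligned reads to the Williams 82 genome (Glyma.Wm82.a1.0, annotation v1.1) with TopHat2 2.0.8 and made the counts with HTSeq in union mode, so the deposited values are raw read counts per gene from unique alignments. Reads of overlapping or antisense genes cannot be told apart, and HTSeq leaves ambiguous reads out. The summary lines of HTSeq were kept out of library sizes. Reads that fell in no gene made up 13.1 to 29.7% of the reads counted or left over in 3MWT and 13.7 to 27.1% in 3mlpa. The authors' GO output was used for its terms and gene lists only. Their tables of line differences (fold changes and p-values) and of normalized abundances were not used.

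Counts were tested with edgeR 4.0.16 in R 4.3.3 by the quasi-likelihood test after TMM scaling, in a single fit over 30 libraries in 10 groups. Genes with at least 10 counts in total were tested (45815 of 54175), p-values were adjusted by the Benjamini-Hochberg method over all of them, and a gene passed at an adjusted p of 0.01 or less. SE was taken as the absolute log2 fold change over the square root of the F statistic. CPM stands for counts scaled to the TMM-adjusted library size. The fit was tested on simulated data. Alternatives were DESeq2 1.42.0 size factors, the DESeq2 Wald test, no filter, filterByExpr, a replicate block, a fit of only the libraries compared, and each library left out in turn.

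The members and the lists were chosen with earlier results of these data known. Roles came from GO terms. Genes named were those of the study's multidrug list, those with the highest level or the largest stage 2 difference per function term, those listed at 3 or more stages, those with the largest changes with growth, and those at 0 counts or with opposite calls. A part of that rule about genes near the authors' threshold was applied by the size of the log2 fold change in the fit used here, because the authors' p-values were not used. None of the identifiers was found in the RefSeq table, so no gene symbols are given.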

Additional observations from a re-analysis of the deposited data

Results flagged for a closer look

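For 9 members the change between stage 1 and stage 5 differed between the lines by the test of that difference, edgeR's quasi-likelihood test with Benjamini-Hochberg adjustment over all genes. All 9 were listed for a line difference at stage 1 or stage 5, so the test shares libraries with their selection. The log2 change in 3mlpa minus that in 3MWT was -4.87 for Glyma17g03100 (adjusted p = 0.00021), -4.02 for Glyma13g17930 (adjusted p = 0.00049) and -3.42 for Glyma17g23821 (adjusted p = 0.0033). It was -2.4 for Glyma07g37550 (adjusted p = 0.0091), which passed in 10 of the 30 fits with a library left out. It was -1.74 for Glyma14g34210 (adjusted p = 0.0038), -1.56 for Glyma03g00770 (0.003), -1.45 for Glyma02g01100 (0.00048), -1.38 for Glyma01g43280 (0.0018) and -1.14 for Glyma05g03340 (0.0043). Glyma17g03100, Glyma07g37550 and Glyma14g34210 lie outside the rule for named genes and appear because their values were seen. Glyma17g23821 did not pass without replicate 3 of 3mlpa at stage 1, replicate 2 or 3 of 3mlpa at stage 5 or replicate 1 of 3MWT at stage 1, each at an adjusted p of 0.011. Glyma05g03340 did not pass without replicate 2 or 3 of 3mlpa or replicate 1 of 3MWT at stage 1, nor without replicate 3 of 3mlpa or replicate 1 or 2 of 3MWT at stage 5 (0.01 to 0.014), and Glyma03g00770 did not pass without replicate 1 of 3mlpa at stage 1 or replicate 2 of 3MWT at stage 5 (0.01 and 0.012). Glyma14g34210 passed in 25 of the 30 fits.

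Replicate 3 of 3mlpa at stage 5 stood apart for single genes in a group of 3, with 0.0571 CPM of Glyma18g11640 beside 5.1 and 6.04 CPM, and 9.82 CPM of Glyma20g34870 beside 99.7 and 100 CPM.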

How the results depend on the processing

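Of the counts of members that passed, those for stages 1, 3, 4 and 5 became 8, 12, 8 and 16 when only the libraries compared were fitted, and the members listed at stage 2 that passed again at those stages became 7, 10, 5 and 6. That setting uses fewer libraries. Without the 4 libraries of low agreement, a setting chosen after the data were seen, stages 3 and 4 gave 81 and 33, the members listed at stage 2 gave 44, 17 and 24 at stages 3, 4 and 5, and the difference between the lines in the change with growth gave 22, against 17 with the DESeq2 Wald test. Stages 1, 2 and 5 gave 56, 104 and 59 without these libraries. The change with growth gave 89 in 3mlpa, with 81 of the 89 kept, and 84 in 3MWT, with 72 of the 77 kept. The cause was not tested. Leaving out each library in turn gave 29 to 53 at stage 1, 40 to 87 at stage 2, 29 to 61 at stage 3, 10 to 22 at stage 4, 22 to 49 at stage 5, 16 to 28, 16 to 33, 5 to 11 and 8 to 17 for the members listed at stage 2 at stages 1, 3, 4 and 5, 79 to 94 and 67 to 81 for the change with growth in 3mlpa and 3MWT, and 6 to 12 for its difference between the lines. Under the DESeq2 size factors and the other filters, all of these counts stayed within 1.5 times. Each setting scaled the libraries, so none shows how far the changes with growth depend on scaling. Under the DESeq2 Wald test, members lower at stage 4 became 16 against 10, and the members listed at stage 2 that passed at stage 3 without being listed there became 8 against 4. Also, no named gene that passed the test passed it in the other direction in any setting.

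Libraries with the same replicate number did not deviate together (correlation -0.333 to 0.379, mean -0.022, and 4 of 15 3mlpa libraries nearest to their own number), so the numbers do not pair the samples. With the replicate number as a block, 49, 76, 49, 19 and 44 members passed at stages 1 to 5, 88 and 76 for the change with growth in 3mlpa and 3MWT, and 9 for its difference.

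Genes with few counts in a line are known only within counting error, which the library totals of 14150244 to 29476755 counts set.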

Other observations

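Members listed at stage 5 only numbered 22. Glyma08g22120, a transporter with no substrate named, had 0.927, 0.732 and 1.31 CPM in 3mlpa at stage 5, against 13.2, 13.8 and 6.86 CPM in 3MWT. Its lines did not overlap there, and it rose in both lines between stages 1 and 5, by 2.34 (SE 0.61) on the log2 scale in 3mlpa and by 5.24 (SE 0.53) in 3MWT. The rise in 3mlpa was lost without replicate 3 of 3mlpa at stage 1 (adjusted p = 0.016) or at stage 5 (adjusted p = 0.018). Glyma11g00710 went the other way, with 4.09, 2.99 and 1.77 CPM in 3mlpa at stage 5, against 0.136, 0.457 and 0.593 CPM in 3MWT. In 3MWT it fell by 3.24 (SE 0.50) between the end stages, and in 3mlpa the change of -0.67 (SE 0.39) did not pass (adjusted p = 0.15).

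Glyma03g30290, an ion transporter gene listed at stage 2, had almost no counts at stage 1, at most 0.0353 CPM in a 3mlpa library and 0.0508 CPM in a 3MWT library. At stage 5 it had 85.8, 73.8 and 56.7 CPM in 3mlpa, against 43.8, 46.8 and 64.5 CPM in 3MWT, where the lines overlapped. Glyma13g28450, listed at stage 1, had the opposite timing in 3mlpa, with 249 counts over 3 libraries at stage 1, against 3 counts in 3MWT, a ratio of 3MWT to 3mlpa of 0.0148 with a 95% exact counting interval of 0.00306 to 0.0434. From stage 2 on, no library of either line had more than 0.269 CPM.

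Glyma17g26520, a gene with no function term that was picked after its values were seen, was lower in 3mlpa at all 5 stages and is listed at stages 3 and 5. At stage 4 it had 19.9, 23.3 and 21.6 CPM in 3mlpa, against 37, 34.6 and 32.2 CPM in 3MWT, without overlap. That difference of -0.68 (SE 0.14, adjusted p = 0.0027) passed in 27 of the 30 fits with a library left out, and its highest adjusted p was 0.019 without replicate 1 of 3mlpa at stage 4. At stages 1 and 2 the differences of -0.52 and -0.54 passed in 22 and 23 of the 30 fits.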
